A study of Homo sapiens with 8 samples.

Results

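The genes described here encode the sensors of viral or misplaced nucleic acids in the cytosol and endosome and the adaptor, kinase and transcription factor that act directly below them. They were chosen by symbol, as every non-control probe whose gene name on the array was DDX58, IFIH1, DHX58, DDX60, TLR3, MB21D1, MAVS, TMEM173, TBK1 or IRF3. The array carries older symbols, and DDX58, MB21D1 and TMEM173 are now RIGI, CGAS and STING1. These 10 genes held 18 of the 50599 non-control probes of 60 bases. All 18 probes were well above background on all 8 arrays, so none was lost to the filter on low values, which left 28677 probes to test.

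Expression was measured in HCT-116, an epithelial line from a human colorectal carcinoma, on one-colour arrays with 2 arrays in each of 4 groups, which the series calls biological replicates. Whether these were separate cultures is not said, so p-values measure the spread between these arrays. WT was the parental line, untreated and growing exponentially. WT+NU6102 was that line after 24 h in 20 µM NU6102, a purine inhibitor of the cyclin-dependent kinases CDK1 and CDK2. CDK2-/- was a CDK2 knockout line, also untreated, purchased like the parental line. R50 was derived from HCT-116 by growth in NU6102 at 50 µM and was kept in that dose, so the drug was present in R50 and WT+NU6102 at different doses and for different times. No solvent-treated WT group is named, and whether CDK2-/- or R50 goes back to 1 clone is not stated. The WT and WT+NU6102 arrays lay on 1 slide and the CDK2-/- and R50 arrays on another, scanned on another day. Slide and group therefore cannot be told apart in any comparison of CDK2-/- or R50 with WT or WT+NU6102, whereas WT and WT+NU6102 could be compared within a slide, as could CDK2-/- and R50.

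RIG-I-like receptors are helicases that bind viral RNA in the cytosol and hand the signal to MAVS on the mitochondrial membrane. Endosomal TLR3 reads double-stranded RNA through a separate adaptor, and cGAS reads cytosolic DNA and makes a cyclic dinucleotide that activates STING on the endoplasmic reticulum. These routes meet at the kinase TBK1, which phosphorylates IRF3, and IRF3 then drives type I and type III interferon genes. Several of the sensors are themselves interferon-stimulated genes, so their basal level is known to follow interferon signalling in epithelial cells.

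Each array had 32376 to 36206 spots well above background, and the 2 arrays of a group correlated at 0.994 to 0.996 over the tested probes. CDK2, measured as a check of the knockout label, stood at -0.76 and -0.76 in WT and at -1.56 and -1.51 in CDK2-/- (log2 difference -0.77, adjusted p = 0.000268). The same probe read -0.44 and -0.42 in WT+NU6102 and -1.10 and -1.09 in R50, so CDK2-/- was not the only group below WT. The files do not say whether this probe lies in the altered stretch of the gene. Of the epithelial markers, 6 of 6 were well above background on all arrays. So were 3 of 5 leukocyte markers (PTPRC, CD14, CD68), 1 of 4 fibroblast markers (COL1A1) and 2 of 3 endothelial markers (VWF, CDH5), while COL1A2 and PDGFRB were so on none. The summed leukocyte list lay from -0.06 to 0.13 in WT, -0.37 to -0.24 in WT+NU6102, -0.50 to -0.33 in CDK2-/- and -0.63 to -0.60 in R50 on the log2 scale. The part of these markers in the results was not tested.

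Levels below are log2 signals less the 75th percentile of the array, so a level of 0 is that percentile, and a level is compared only with the same probe on other arrays. A gene is represented by its brightest probe unless others are named. Differences are log2 fold changes with the standard error of the fit (limma, n = 2 arrays per group), and a gene was called at a Benjamini-Hochberg adjusted p under 0.05 over all tested probes. Bulk RNA cannot separate fewer expressing cells from less RNA per cell.

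The RNA sensors fell together in WT+NU6102 and in CDK2-/-, and in R50 stood between those groups and WT, or at WT for DHX58, while the DNA-side adaptor TMEM173 fell in the first pair and rose in R50. In WT+NU6102 against WT, 6 of the 10 genes were lower (DDX58, IFIH1, DHX58, DDX60, TLR3, TMEM173), against 24% of all 15384 genes tested. MAVS was the 1 called higher, against 29% of all genes. In CDK2-/- against WT, 7 were lower (the same 6 and MAVS) against 16.5% of all genes, and 0 were higher against 19.6%. In R50 against WT, 5 were lower (DDX58, IFIH1, DDX60, TLR3, MAVS) against 15.6%, and only TMEM173 was higher, against 12.1%. The median difference of the 10 genes was -0.78 in WT+NU6102, -0.74 in CDK2-/- and -0.31 in R50, where the median over all genes was 0.04, 0.02 and -0.04. These 3 comparisons share the WT arrays. The call of MAVS turns with the probe: with each gene called on whichever of its probes had the smallest adjusted p, 0 genes were higher and 7 lower in WT+NU6102, 0 and 7 in CDK2-/-, and 2 and 4 in R50. This choice favours genes with more probes, and the share of all genes under it is not given. In CDK2-/-, MAVS counted as lower on its brightest probe, while another of its probes was called higher (adjusted p = 0.00876).

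R50 was then set against the other groups. Against CDK2-/-, on the same slide, 6 of the 10 genes were higher in R50 (DDX58, IFIH1, DHX58, DDX60, TLR3, TMEM173) where 16.9% of all genes were, and 1 was lower (TBK1) where 24.2% were. Against WT+NU6102, the same 6 were higher (26.1% of all genes) and 2 were lower (MAVS, TBK1; 34% of all genes). CDK2-/- and WT+NU6102 differed in 5 of the 10, with DDX58, DHX58 and TLR3 higher in CDK2-/- (29.2% of all genes) and MAVS and TMEM173 lower (31.3% of all genes). The median size of that last difference, whatever its sign, was 0.14 over the 10 genes and 0.36 over all genes. An F-test across the 4 groups at an adjusted p under 0.001 called 7 of the 10, all but MB21D1, TBK1 and IRF3, where 27.5% of all genes were called. That count was 4, without DDX58, TLR3 and MAVS, when any 1 array was left out, with the replicate number as a block, or without the filter on dim probes. The share of all genes called in those settings is not given. With calls on any probe of a gene, 7 genes were higher and 1 lower in R50 against CDK2-/- and against WT+NU6102, and 4 were higher and 1 lower in CDK2-/- against WT+NU6102. The share of all genes under this rule is likewise not given.

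**Figure D1:**
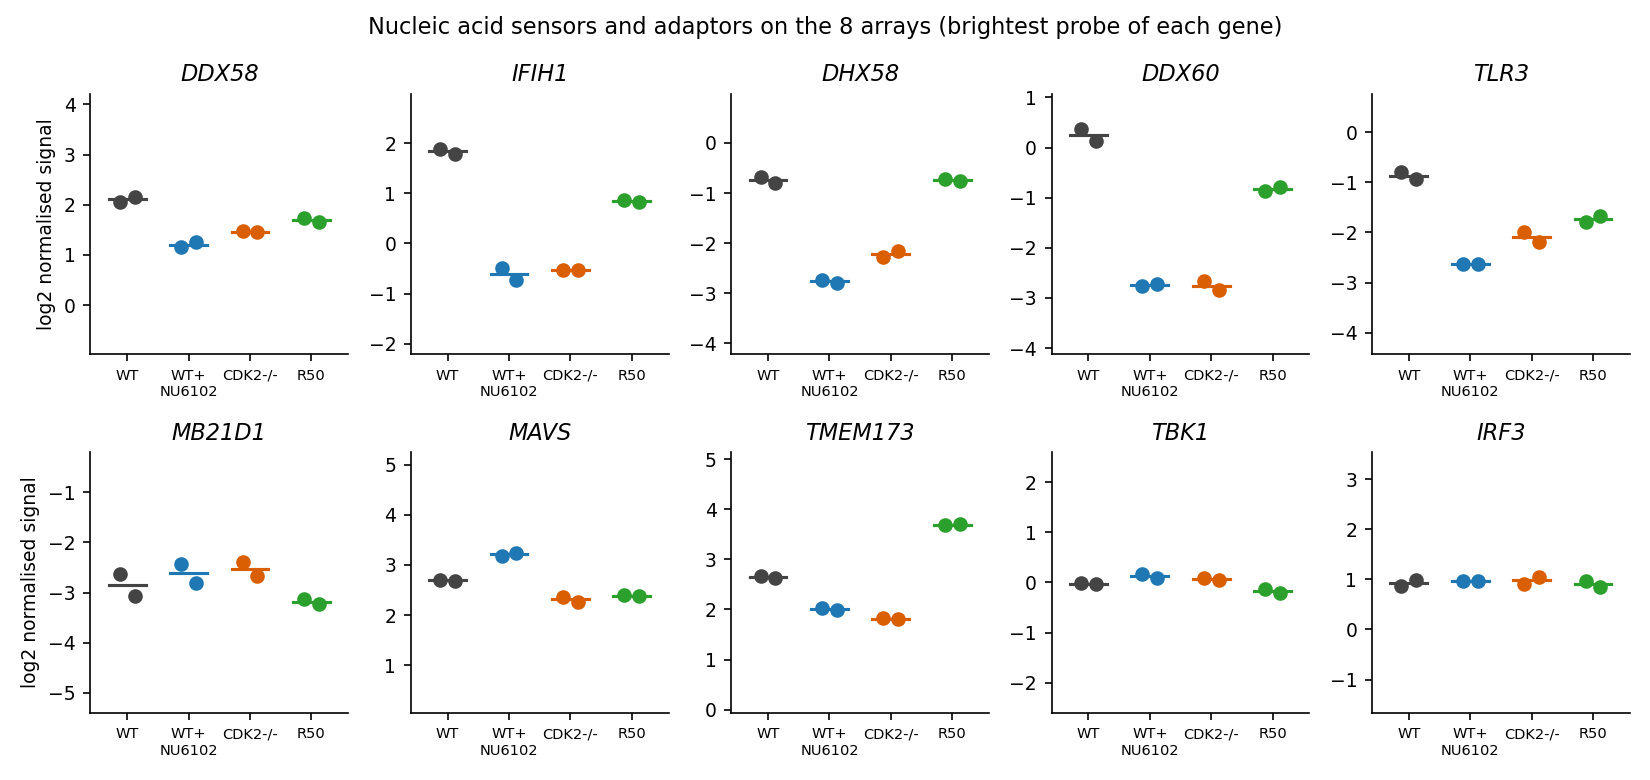
Level of each gene on each array (log2 normalised signal of its brightest probe, 1 point per array, line at the mean of the 2 arrays), with the same height of axis in each panel. IFIH1, DHX58, DDX60 and TLR3 are low in WT+NU6102 and CDK2-/-, TMEM173 is highest in R50 (3.68 and 3.70), and TBK1 and IRF3 stay within a narrow range.

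IFIH1 encodes MDA5, the receptor of long double-stranded RNA. Its level was 1.89 and 1.79 in WT, -0.49 and -0.72 in WT+NU6102, -0.52 and -0.52 in CDK2-/- and 0.87 and 0.83 in R50. The WT arrays were highest, the R50 arrays next, and the WT+NU6102 arrays lay on both sides of the CDK2-/- arrays. The fall was 5.44-fold in WT+NU6102 (-2.44 ± 0.085, adjusted p = 8.99e-05) and 5.13-fold in CDK2-/- (-2.36 ± 0.085, adjusted p = 7.03e-05). In R50 it was 1.98-fold (-0.99 ± 0.085, adjusted p = 0.00194). R50 exceeded CDK2-/- by 1.37 ± 0.085 (adjusted p = 0.000301) and WT+NU6102 by 1.46 (adjusted p = 0.000102). CDK2-/- and WT+NU6102 were not separated, with an interval for their difference of -0.13 to 0.30.

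DDX60 encodes a helicase that has been linked to the RIG-I-like receptor route, and it had the lowest values relative to WT of the 10 genes. It stood at 0.36 and 0.12 in WT and at -2.77 and -2.71 in WT+NU6102. The CDK2-/- arrays gave -2.67 and -2.85, and the R50 arrays -0.87 and -0.79. R50 thus lay apart from both WT and the low pair, which overlapped each other. The difference from WT was -2.98 ± 0.10 in WT+NU6102 (7.91-fold lower, adjusted p = 8.89e-05), -3.00 ± 0.10 in CDK2-/- (adjusted p = 6.08e-05) and -1.07 ± 0.10 in R50 (2.11-fold lower, adjusted p = 0.00267). R50 was 3.80-fold above CDK2-/- (adjusted p = 0.000198). Between CDK2-/- and WT+NU6102 the difference was -0.02, with an interval of -0.27 to 0.24.

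DHX58 encodes LGP2, the RIG-I-like receptor that lacks signalling domains and tunes the other receptors. WT gave -0.68 and -0.80, WT+NU6102 -2.73 and -2.79, CDK2-/- -2.28 and -2.16 and R50 -0.73 and -0.76. The R50 values fell between those of the WT arrays. The gene fell 4.05-fold in WT+NU6102 (-2.02 ± 0.068, adjusted p = 8.64e-05) and 2.79-fold in CDK2-/- (-1.48, adjusted p = 0.00014). R50 differed from WT by -0.004 with an interval of -0.17 to 0.16 (adjusted p = 0.975), and exceeded CDK2-/- 2.78-fold (1.47, adjusted p = 0.000131) and WT+NU6102 4.04-fold (2.01, adjusted p = 2.55e-05). CDK2-/- was in turn 1.45-fold above WT+NU6102 (adjusted p = 0.00135).

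DDX58 encodes RIG-I, the receptor of RNA with a 5′ triphosphate. Both of its probes ordered the groups alike but by different amounts. The brighter one (hg19 chr9:32455398-32455457, minus strand) read 2.06 and 2.16 in WT, 1.16 and 1.25 in WT+NU6102, 1.47 and 1.45 in CDK2-/- and 1.74 and 1.65 in R50. No groups overlapped, with WT highest, then R50, CDK2-/- and WT+NU6102. Its difference from WT was -0.91 ± 0.063 in WT+NU6102 (adjusted p = 0.00033), -0.65 in CDK2-/- (adjusted p = 0.00145) and -0.42 in R50 (adjusted p = 0.0101). Its excess in R50 over CDK2-/-, 0.23 with an adjusted p of 0.0385, lost its call in 11 of 17 alternative settings, over which the adjusted p ran from 0.000505 to 0.151. Leaving out any 1 array ended that call, at 0.0510 to 0.151. The call in R50 against WT was lost without WT replicate 2 (adjusted p = 0.0531) and without the filter on dim probes (0.0517), over a range of 0.000426 to 0.0531.

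The dimmer DDX58 probe (hg19 chr9:32455728-32455787, minus strand) read -0.45 and -0.69 in WT, -2.96 and -3.23 in WT+NU6102, -2.35 and -2.50 in CDK2-/- and -1.32 and -1.32 in R50. Its difference from WT was -2.52 ± 0.13 in WT+NU6102 (5.74-fold lower), -1.85 in CDK2-/- (3.61-fold lower) and -0.75 in R50 (1.68-fold lower), and R50 was 2.15-fold above CDK2-/- (adjusted p = 0.00207). Taken within each array, the brighter probe minus the dimmer one moved by 1.62 ± 0.16 in WT+NU6102 (adjusted p = 0.00222) and by 1.21 in CDK2-/- (adjusted p = 0.00645), and by 0.33 in R50 (adjusted p = 0.302). Over the 4520 genes with more than 1 tested probe, this kind of difference was called in 21.8%, 17.4% and 4.4% of genes in the same order. What makes the probes differ was not tested.

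TLR3 encodes the endosomal receptor of double-stranded RNA. It read -0.79 and -0.94 in WT, -2.63 and -2.64 in WT+NU6102, -1.98 and -2.19 in CDK2-/- and -1.80 and -1.66 in R50. WT was highest and WT+NU6102 lowest, with no overlap between groups. The fall was 3.41-fold in WT+NU6102 (-1.77 ± 0.097, adjusted p = 0.000187), 2.33-fold in CDK2-/- (-1.22, adjusted p = 0.000717) and 1.82-fold in R50 (-0.87, adjusted p = 0.00412). CDK2-/- exceeded WT+NU6102 by 0.55 (adjusted p = 0.0051). R50 exceeded CDK2-/- by only 0.36 (adjusted p = 0.0373), a call lost in 8 of 17 alternative settings with adjusted p between 0.017 and 0.148, among them those without WT+NU6102 replicate 1, WT+NU6102 replicate 2, CDK2-/- replicate 2, R50 replicate 1 or R50 replicate 2.

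The stretches of 250 bases before the transcription start of 4 of these sensors are shown because the genes moved together, from RefSeq on GRCh38.p14, each read 5′ to 3′ on the strand of its gene. Capitals mark every match, on either strand, to GAAANNGAAA, a form of the paired GAAA element that interferon regulatory factors bind.
IFIH1 (chr2:162318685-162318934, minus strand): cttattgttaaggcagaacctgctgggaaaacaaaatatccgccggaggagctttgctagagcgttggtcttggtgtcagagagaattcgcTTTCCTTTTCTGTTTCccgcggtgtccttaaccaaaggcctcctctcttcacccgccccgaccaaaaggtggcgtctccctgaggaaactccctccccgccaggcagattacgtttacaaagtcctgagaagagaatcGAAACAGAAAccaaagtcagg
DDX60 (chr4:168318753-168319002, minus strand): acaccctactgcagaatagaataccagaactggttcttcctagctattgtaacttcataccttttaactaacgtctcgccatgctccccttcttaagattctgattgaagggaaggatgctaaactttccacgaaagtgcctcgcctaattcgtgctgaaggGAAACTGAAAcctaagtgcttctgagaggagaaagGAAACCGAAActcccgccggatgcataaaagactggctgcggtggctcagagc
DDX58 (chr9:32526197-32526446, minus strand): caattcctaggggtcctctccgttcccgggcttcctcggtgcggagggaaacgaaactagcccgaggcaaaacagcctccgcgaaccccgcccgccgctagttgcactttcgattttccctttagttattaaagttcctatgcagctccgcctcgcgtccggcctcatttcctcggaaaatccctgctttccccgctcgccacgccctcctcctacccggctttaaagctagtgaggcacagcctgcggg
TLR3 (chr4:186068906-186069155, plus strand): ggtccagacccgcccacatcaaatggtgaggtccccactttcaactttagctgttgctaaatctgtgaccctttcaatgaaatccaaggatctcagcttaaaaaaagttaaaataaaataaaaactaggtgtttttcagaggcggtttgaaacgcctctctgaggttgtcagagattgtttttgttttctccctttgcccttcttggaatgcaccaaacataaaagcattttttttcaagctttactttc
IFIH1 held 3 matches. The one on the gene's own strand began 21 bases before the start, and the others, which overlap each other, lay on the opposite strand and began 159 and 153 bases before it. DDX60 held 2, both on its own strand, 88 and 53 bases before the start. DDX58, TLR3, MAVS and TBK1 held 0 matches in this window. The pattern fixes the gap between the GAAA runs, so pairs with another gap, such as gaaacgaaa in the DDX58 stretch, were not counted. DHX58, MB21D1, TMEM173 and IRF3 were not among the promoters listed, so 2 of the 6 listed genes had a match. Of all 35116 RefSeq promoter stretches of this length, 3.02% held one. A match is a run of letters and not a measured binding site.

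MB21D1 encodes cGAS, the sensor of cytosolic DNA. WT read -2.64 and -3.08, WT+NU6102 -2.42 and -2.81, CDK2-/- -2.39 and -2.67 and R50 -3.13 and -3.23. The R50 arrays were the lowest, and the other groups overlapped. No comparison was called. The largest difference, R50 minus CDK2-/- at -0.65 ± 0.20, had an adjusted p of 0.0558, and 7 of 17 alternative settings called it (adjusted p 0.0106 to 0.213). R50 against WT+NU6102 gave -0.56 (adjusted p = 0.063) and was called in 9 of 16 settings (adjusted p 0.0085 to 0.244). Against WT the intervals ran from -0.26 to 0.74 in WT+NU6102, -0.17 to 0.83 in CDK2-/- and -0.82 to 0.18 in R50.

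**Figure D2:**
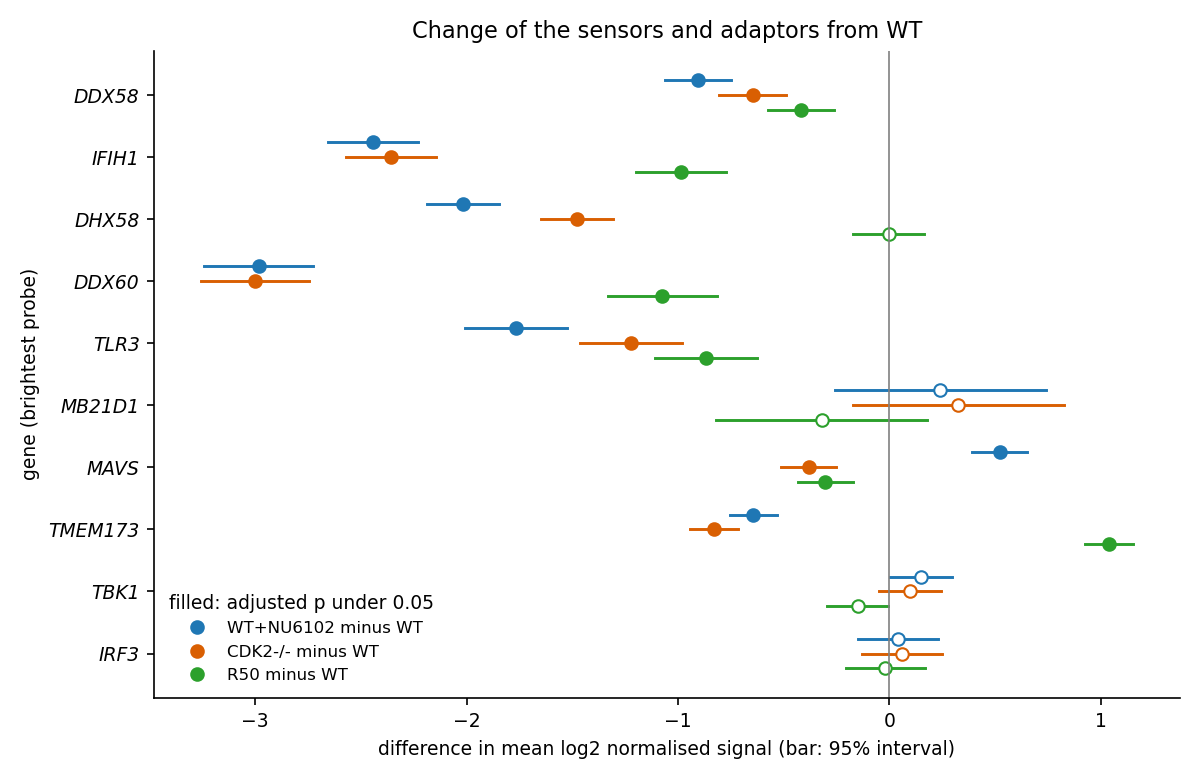
Difference from WT of each gene's brightest probe (log2 scale on the x axis, 1 row per gene, bars for the 95% interval, filled points called at an adjusted p under 0.05). DDX60 lies near -3 in WT+NU6102 and CDK2-/-, DHX58 at 0 in R50, and TMEM173 has its R50 point at 1.04, on the other side of 0 from its other points.

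TMEM173 encodes STING, the adaptor of the DNA route. It read 2.66 and 2.63 in WT, 2.02 and 1.99 in WT+NU6102, 1.84 and 1.80 in CDK2-/- and 3.68 and 3.70 in R50. R50 stood above every other array, and the 4 groups did not overlap. Relative to WT, TMEM173 fell 1.56-fold in WT+NU6102 (-0.64 ± 0.045, adjusted p = 0.000333) and 1.78-fold in CDK2-/- (-0.83 ± 0.045, adjusted p = 0.00024). In R50 it rose 2.06-fold (1.04 ± 0.045, adjusted p = 0.000316). Within the slide, R50 was 3.65-fold above CDK2-/- (1.87, adjusted p = 2.49e-05). Against WT+NU6102 the excess was 3.21-fold (1.68, adjusted p = 1.74e-05). The small difference of CDK2-/- below WT+NU6102, -0.19 with an adjusted p of 0.0172, was lost in 5 of 16 alternative settings (adjusted p 0.00249 to 0.212), among them those without WT+NU6102 replicate 1, CDK2-/- replicate 1 or CDK2-/- replicate 2.

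MAVS encodes the mitochondrial adaptor of the RNA route, and its direction depended on the probe. It had 7 probes. The brightest (hg19 chr20:3847884-3847943, plus strand) read 2.70 and 2.69 in WT, 3.18 and 3.25 in WT+NU6102, 2.35 and 2.27 in CDK2-/- and 2.41 and 2.38 in R50. WT+NU6102 was the highest group on this probe, and CDK2-/- and R50 lay below WT. Its difference from WT was 0.52 ± 0.052 in WT+NU6102 (adjusted p = 0.000892), -0.38 in CDK2-/- (adjusted p = 0.00442) and -0.30 in R50 (adjusted p = 0.0144), the last lost in 5 of 16 alternative settings, without WT replicate 1, WT replicate 2, R50 replicate 1 or R50 replicate 2 and without the filter on dim probes. With the mean of all MAVS probes in place of this one, the R50 value was 0.22 (adjusted p = 0.013) and that of WT+NU6102 was -0.51 (adjusted p = 0.000259), so both directions turned. Over all alternatives the adjusted p ran from 0.000771 to 0.0767 for R50 and from 7.63e-06 to 0.00935 for WT+NU6102.

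A group of 5 MAVS probes starts 7698 to 8827 bases further along the gene, the farthest at hg19 chr20:3856711-3856770. The one nearest the brightest probe (hg19 chr20:3855582-3855641) read 1.67 and 1.63 in WT, 0.85 and 0.88 in WT+NU6102, 1.65 and 1.78 in CDK2-/- and 1.97 and 2.04 in R50. Here WT+NU6102 was lowest and R50 highest, while CDK2-/- overlapped WT. All 5 probes were lower in WT+NU6102 than in WT, with differences of -0.93 to -0.66, and all 5 were higher in R50, by 0.30 to 0.49, each of these differences called. In CDK2-/- the 5 lay from 0.02 to 0.34 above WT, and only the farthest was called (adjusted p = 0.00876). Pairs of these probes overlap in sequence, so they are not independent measurements.

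The seventh MAVS probe (hg19 chr20:3835323-3835382), assigned to another transcript of the gene, read 0.28 and 0.30 in WT, 0.27 and 0.29 in WT+NU6102, 0.11 and 0.31 in CDK2-/- and 0.20 and 0.25 in R50, and was called in none of the 6 comparisons. Within each array, the brightest MAVS probe minus the mean of its other 6 moved by 1.20 ± 0.083 in WT+NU6102 (adjusted p = 0.00085). It moved by -0.50 in CDK2-/- (adjusted p = 0.0128) and by -0.61 in R50 (adjusted p = 0.0253). The CDK2-/- value lost its call without WT replicate 1, WT replicate 2 or CDK2-/- replicate 2 (adjusted p over all alternatives 0.00386 to 0.0712). The R50 value did so without any 1 of the WT or R50 arrays and with the replicate block (0.00439 to 0.116). Whether a probe lies in coding or untranslated sequence was not determined here, and which transcripts the probes read was not tested.

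**Figure D3:**
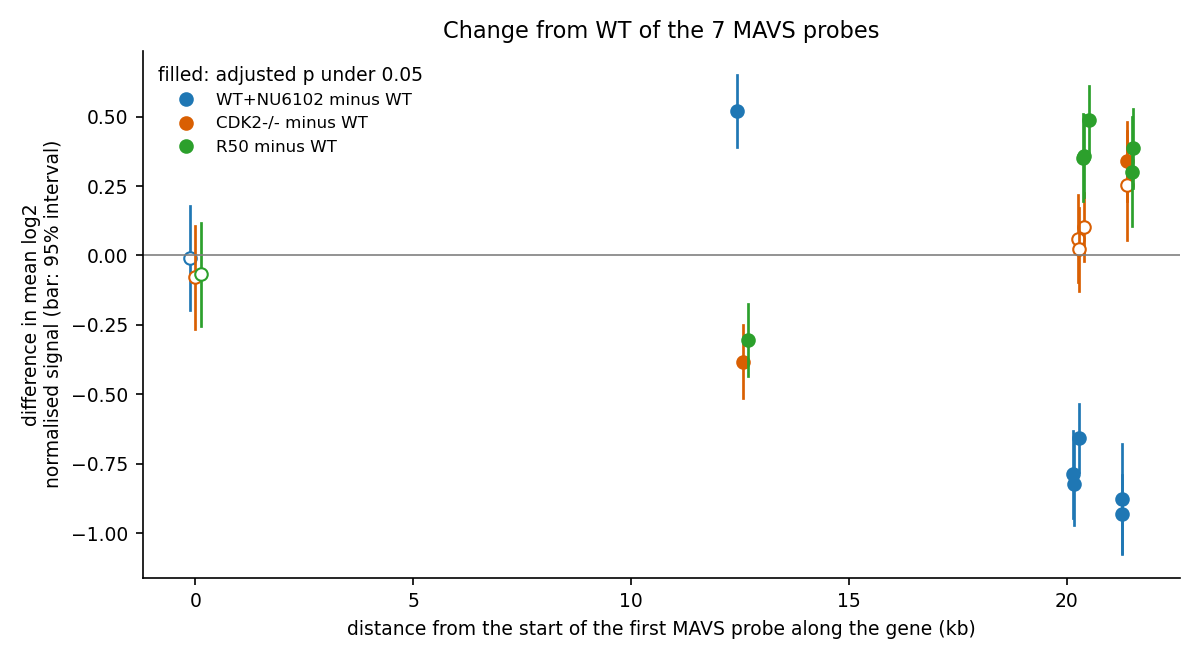
Difference from WT of the 7 MAVS probes (log2 scale, bars for the 95% interval, filled points called at an adjusted p under 0.05) against distance along the gene in kb from the start of the first probe, with the 3 groups set slightly side by side. The WT+NU6102 point is at 0.52 for the brightest probe and between -0.93 and -0.66 for the 5 probes to its right, where the R50 points lie between 0.30 and 0.49.

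TBK1 encodes the kinase on which the routes meet. It read -0.02 and -0.03 in WT, 0.17 and 0.08 in WT+NU6102, 0.10 and 0.05 in CDK2-/- and -0.13 and -0.22 in R50. Both R50 arrays were the lowest, and WT lay between them and the overlapping arrays of WT+NU6102 and CDK2-/-. The differences from WT were small and not called: 0.15 ± 0.058 in WT+NU6102 (adjusted p = 0.0879), 0.10 in CDK2-/- (adjusted p = 0.266) and -0.15 in R50 (adjusted p = 0.125). TBK1 fell in R50 relative to WT+NU6102, 1.23-fold (-0.30, adjusted p = 0.00732). Relative to CDK2-/- it fell 1.19-fold (-0.25, adjusted p = 0.0238), a call lost in 5 of 17 alternative settings with adjusted p between 0.00935 and 0.111, among them those without CDK2-/- replicate 1, CDK2-/- replicate 2 or R50 replicate 2.

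IRF3, the transcription factor that TBK1 phosphorylates, was called in none of the 6 comparisons on either of its 2 probes. The brighter probe read 0.86 and 0.98 in WT, 0.96 and 0.96 in WT+NU6102, 0.91 and 1.04 in CDK2-/- and 0.96 and 0.84 in R50, with all groups overlapping. The interval of its difference from WT was -0.15 to 0.23 in WT+NU6102, -0.13 to 0.25 in CDK2-/- and -0.21 to 0.17 in R50. IRF3 is switched on by phosphorylation, which RNA levels do not show. The 2 probes moved alike, with a change in their difference of 0.09 in WT+NU6102 (adjusted p = 0.355), 0.01 in CDK2-/- (adjusted p = 0.944) and -0.01 in R50 (adjusted p = 0.966).

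Over the 8 arrays, the level of DDX58 correlated with TLR3 at r = 0.979, IFIH1 at 0.948, DDX60 at 0.933 and DHX58 at 0.882. The other genes followed it less or ran the other way, with TMEM173 at 0.480, IRF3 at -0.269, MAVS at -0.371, MB21D1 at -0.470 and TBK1 at -0.550. Among the 15374 other genes, OAS2 (r = 0.990), HSPB1 (0.989), TRAPPC9 (0.984), MX1 (0.983) and OBSL1 (0.983) were most like it. OAS2 and MX1 are interferon-stimulated antiviral genes, and HSPB1 is a small heat shock protein. These r values describe 8 points in 4 groups that also share slides, and are given without a test.

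Other genes of the pathway were taken from lists, of which 62 of 70 genes on the array were tested. In WT+NU6102, 34 were lower than WT and 10 higher, where 24% of all genes were lower and 29% higher. In CDK2-/- 26 were lower and 6 higher (16.5% and 19.6% of all genes), and in R50 20 were lower and 2 higher (15.6% and 12.1%). The falls of at least 2-fold numbered 18, 17 and 7, and 0 genes rose as much. The share of all genes at this size is not given here, since the shares above hold for calls of any size. The products IL29, IL28B and CCL5 were well above background on 3, 2 and 3 arrays and entered the test through the WT arrays alone, so they had to be lower elsewhere. Without them, 59 genes were tested, of which 31, 23 and 18 were lower, 15, 14 and 5 of them by at least 2-fold.

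The other 5 tested products of the pathway, IL28A, IFIT1, IFIT2, IFIT3 and ISG15, gave a signal well above background on each of the 8 arrays. Each of them fell in WT+NU6102, CDK2-/- and R50, where 24%, 16.5% and 15.6% of all genes were lower. IFIT1, which binds viral RNA lacking a normal cap, fell with log2 differences of -3.48, -5.02 and -1.47 in that order, and ISG15, a ubiquitin-like modifier, with -1.63, -2.10 and -1.07. IFNB1 and CXCL10 were not well above background on any array. The interferon lambda genes on the array are near-copies of each other, so their probes may share signal. Of the 6 effectors that double-stranded RNA activates, 6 fell in WT+NU6102, 5 in CDK2-/- and 4 in R50. The same shares of all genes stand beside these counts. Among the 5 was OAS1 (-4.65 ± 0.78, adjusted p = 0.00872), whose CDK2-/- arrays differed widely, with a standard deviation of 1.83. OAS3, which makes the oligoadenylate that activates RNase L, fell with -2.22, -2.23 and -1.02, and EIF2AK2, the kinase PKR, with -1.21, -1.42 and -0.61.

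In the kinase and transcription factor module around TBK1 and IRF3, 15 genes were tested, and 4 were higher and 4 lower in WT+NU6102, 0 and 2 in CDK2-/-, and 1 and 4 in R50. As shares of 15 genes these lie near those of all genes in WT+NU6102 (29% and 24%), and in the other groups all genes gave 19.6% and 16.5%, and 12.1% and 15.6%. IRF7 is the interferon-induced relative of IRF3. Its difference from WT was -2.41 in WT+NU6102, -3.27 in CDK2-/- and -0.81 in R50, each called, and it was 2.46 higher in R50 than in CDK2-/- (adjusted p = 3.32e-05). IRF9, a subunit of the interferon-stimulated transcription complex and listed under interferon receptor signalling, fell in WT+NU6102 and CDK2-/-, with -3.81 and -2.56, and its value in R50 was -0.23 (adjusted p = 0.118).

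Of the 11 regulators of RIG-I-like receptors, 6 were lower and 1 higher in WT+NU6102, 2 and 1 in CDK2-/-, and 1 and 0 in R50, with medians of -0.19, -0.04 and -0.11. IFIT5 was lower in each, at -1.01, -1.26 and -0.88. Of the 11 tested genes of DNA sensing and nucleic acid clearance, 5 were lower and 3 higher in WT+NU6102, 3 and 4 in CDK2-/-, and 2 and 0 in R50, with medians of -0.11, 0.04 and -0.10. The DNA sensors IFI16, ZBP1 and AIM2 were not well above background on any array. Of the 4 tested genes of endosomal sensing besides TLR3, 2 were lower in WT+NU6102 and 2 in CDK2-/-, and 1 was lower and 1 higher in R50. Beside the counts of these 3 lists, 24% of all genes were lower and 29% higher in WT+NU6102. In CDK2-/- the shares were 16.5% and 19.6%, and in R50 15.6% and 12.1%. TLR7 and TLR8 were not well above background on any array.

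**Figure D4:**
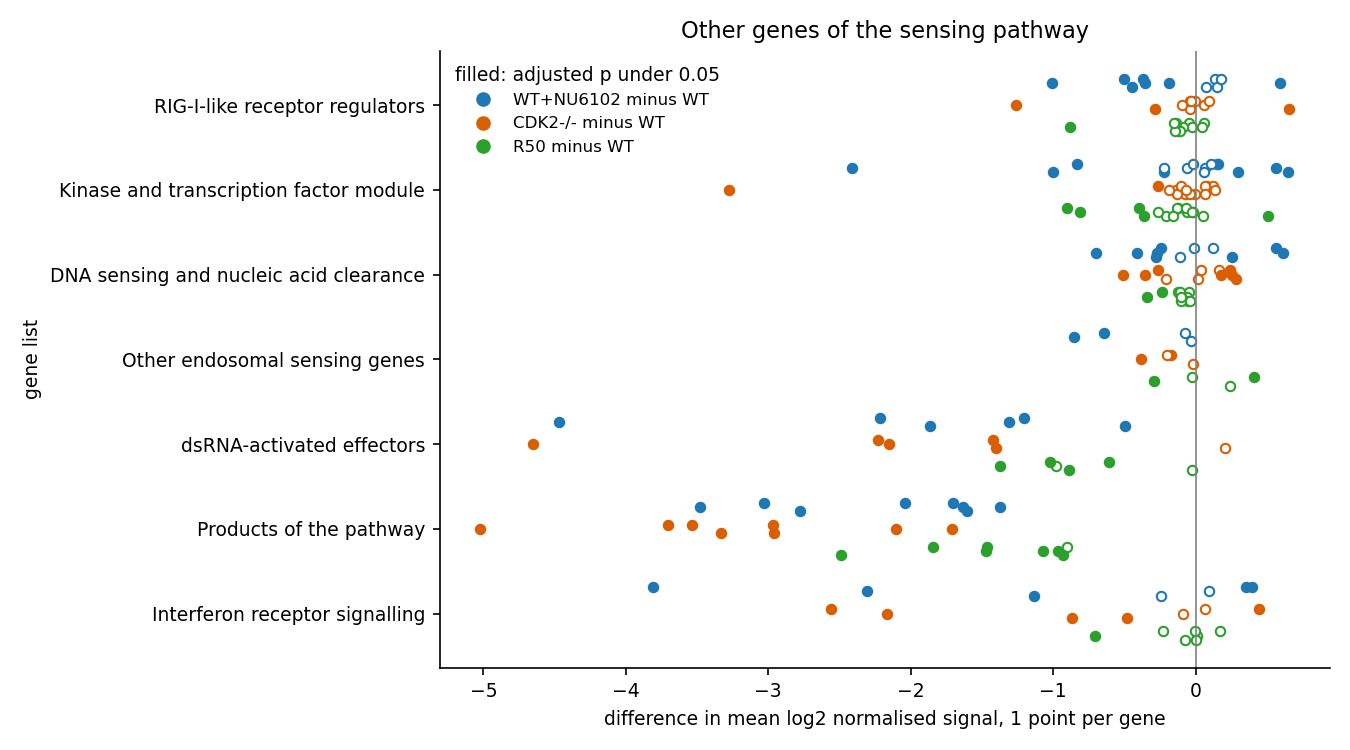
Difference from WT of the 62 other tested pathway genes (log2 scale on the x axis, 1 point per gene, rows by list, colours by group, filled points called at an adjusted p under 0.05). The effectors and products lie mostly below -1 in WT+NU6102 and CDK2-/- and mostly less far below 0 in R50. Of the products, 3 entered through the WT arrays alone, and 3 of the other 5 still fell at least 2-fold in R50. Most regulators and kinase module genes lie near 0.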

How the data were processed

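RNA from HCT-116 cells of 4 groups, 2 arrays each, was labelled with Cy3 and hybridised by the authors to Agilent SurePrint G3 Human GE arrays. The deposited scanner files give, per spot, a background-subtracted intensity from Agilent Feature Extraction 11.5.1.1, not normalized between arrays. The authors also deposited log2 values from GeneSpring GX. They correlate above 0.999 with the scanner values here once each probe is centred on its median over arrays, and served as an alternative.

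R 4.3.3 was used throughout the fits. Control spots (of 62976 spots, 58717 were not controls) and outlier spots were left out, signals were taken to log2 less their array's 75th percentile, and the spots of a probe were averaged. A probe was tested if well above background on the 2 arrays of any group. The files mark 0 spots as saturated. Limma 3.58.1 fitted the 8 arrays in 1 model of 4 groups with 4 residual degrees of freedom, two-sided, with Benjamini-Hochberg adjustment over 28677 probes, and was tested on simulated data. Genes with more than 1 probe are represented by the brightest. Probe positions are those of the WT and WT+NU6102 files, on hg19. Named genes are the members, CDK2, the 5 genes most like DDX58, and pathway genes called with a log2 change of at least 1 against WT. The other pathway genes are given by counts, and those not well above background are named as such. The counts of the interferon receptor signalling list by itself are not reported here. The members, lists and tests were chosen with earlier results of these data known. Differences between probes of 1 gene were added after the MAVS values were seen. The alternatives for the pathway counts, among them the count without genes that entered through WT alone, were also chosen after seeing the data. The number of arrays limits the precision. Motifs were searched with Python 3.11.15 and figures drawn with matplotlib 3.10.9.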

Additional observations from a re-analysis of the deposited data

How the results depend on the processing

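Each result was recomputed with another background correction, normalization, probe filter, prior or choice of probe, from the authors' values, with fewer arrays, and with the replicate number as a block. Of 500 log2 fold changes under settings other than leaving out an array, 470 kept their direction and side of the threshold, 13 lost their call, 12 gained one and 5 reversed. All 5 were MAVS with the mean of its probes: -0.51 in WT+NU6102 against WT, 0.05 in CDK2-/- against WT, 0.22 in R50 against WT, 0.73 in R50 against WT+NU6102 and 0.55 in CDK2-/- against WT+NU6102. The brightest MAVS probe moves against 5 others, so the average turns. Of 480 values with an array left out, 448 stayed, 27 lost and 5 gained a call.

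Asking also for a log2 change of at least 1, the genes called were 4 in WT+NU6102 against WT, 4 in CDK2-/- against WT, 2 in R50 against WT, 4 in R50 against CDK2-/-, 4 in R50 against WT+NU6102 and 0 in CDK2-/- against WT+NU6102, and the pathway genes 18, 17 and 7 against WT. No share of all genes at this size is given beside these counts. Without the filter on dim probes, more probes are adjusted over. Then 4 genes were called in R50 against WT, where the main setting called 6, with DDX58 and MAVS lost. In R50 against CDK2-/- 4 were called, in CDK2-/- against WT+NU6102 3, and by the F-test 4. Leaving out 1 array gave 4 to 7 genes in R50 against CDK2-/-, with 4 reached without CDK2-/- replicate 2 or R50 replicate 2. It gave 3 to 5 in CDK2-/- against WT+NU6102, with 3 reached without WT+NU6102 replicate 1 or either CDK2-/- array, and 4 to 4 by the F-test, where any 1 array left out lost DDX58, TLR3 and MAVS.

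The differences between replicates correlated at -0.028 to 0.045 between groups, so no shared effect of the replicate number was seen. These values do not settle whether the arrays were paired. With the replicate block, 7 genes were called in WT+NU6102 against WT, 7 in CDK2-/- against WT, 6 in R50 against WT, 6 in R50 against CDK2-/- and 4 by the F-test. In R50 against CDK2-/-, the block lost the calls of DDX58 and TLR3 and gained that of MB21D1. The slide could not be fitted as a block, since each group lies on 1 slide. With the 4 arrays of a slide alone, 7 genes were called in WT+NU6102 against WT and 5 in R50 against CDK2-/-. The latter lost DDX58, TLR3 and TBK1 and gained MB21D1. The plain ANOVA named in the methods called 5 of the 10 at its threshold. The share of all genes called under the settings of this section is not given. Its counts are therefore compared only with the main counts of the same genes.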
